A study of Mus musculus with 12 samples.

Results

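The genes described are 34 enzymes and regulators of cholesterol and fatty acid synthesis, out of 25887 genes measured in sorted mouse dermal papilla cells. They were taken from a list by name and matched to the Ensembl identifiers of the deposited tables. No cutoff on their measured values was used, but the list was chosen with earlier results of these data known. The sterol arm holds 22 genes: 17 enzymes, the regulators Srebf2, Scap, Insig1 and Insig2, and the sterol carrier Stard4. The fatty acid arm holds 12 genes: 11 enzymes and the regulator Srebf1.

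The dermal papilla is the cluster of specialised fibroblasts at the base of the hair follicle that signals to the epithelium through the hair cycle of rest (telogen) and growth (anagen). Total RNA from cells isolated by FACS was sequenced in 12 libraries, 3 in each of 4 groups. P20 WT and P20 Smo* came from females at postnatal day 20, in telogen. P28 WT came from males at postnatal day 28 in Anagen VI, and P28 Smo* from males of that age in anagen I-III. Smo* is a gain-of-function form of Smo, the membrane protein that turns on Hedgehog signalling, and the labels describe it as specific to the dermal papilla. The driver of the mutation, the way the cells were gated and the number of animals behind each library were not given in the sources used here. At P28 the genotypes also differ in anagen stage, and between P20 and P28 age, sex and hair-cycle stage change together, so these cannot be told apart.

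Cholesterol is built from acetyl-CoA through mevalonate, isoprenoids, squalene and lanosterol, while fatty acids are built from the same precursor by acetyl-CoA carboxylase and fatty acid synthase and then elongated and desaturated. Srebf2 encodes the transcription factor that mainly drives the sterol genes, and Srebf1 the one that mainly drives the fatty acid genes. Scap escorts both factors out of the endoplasmic reticulum, and the Insig proteins hold Scap back when sterols are plentiful. Inherited defects of late sterol enzymes such as Nsdhl and Ebp disturb skin and hair, loss of Scd1 causes sebaceous gland loss and baldness in mice, and cholesterol binds the Smo protein itself.

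Reads on genes ranged from 36323058 to 48926831 per library. Genes with at least 1 read numbered 17337 to 17926 in 11 libraries and 15453 in P28 Smo* replicate 3. The Hedgehog targets Gli1 and Ptch1 were higher in Smo* at both ages (limma adjusted p 0.0449 and 0.0179 at P20, 0.000237 and 0.0152 at P28), with 3 of 3 Smo* libraries above all WT libraries each time. Summed counts over 21 dermal papilla markers were 83501 to 111933 in P20 WT, 94089 to 124079 in P20 Smo*, 539163 to 635711 in P28 WT and 61476 to 394614 in P28 Smo*. The lowest of these sums was that of P28 Smo* replicate 3, which also held 1018 normalized counts of the adipocyte hormone gene Adipoq against 25 and 2 in the other P28 Smo* libraries.

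All 34 genes passed the filter on low values, a mean of at least 10 normalized counts over the libraries compared. A normalized count is the number of reads on a gene divided by a size factor of its library. Per kilobase of exon and averaged over the 12 libraries, the stearoyl-CoA desaturases Scd2 and Scd1, which make monounsaturated fatty acids, had the highest means of the 34, at 2904 and 1909 normalized counts per kilobase. The place of Scd1 came from P28 WT, where it averaged 5308. In P28 Smo* it averaged 1035, below Insig1 at 1436, and in P20 WT 711, below Insig1 at 1125. Over the 12 libraries Insig1 followed at 1062, the desaturase Fads1 at 972, fatty acid synthase Fasn at 928 and the mevalonate pathway enzyme Hmgcs1 at 811. The farnesyl diphosphate synthase gene Fdps was lowest at 13.2, after acetyl-CoA synthetase Acss2 at 41.3 and lanosterol synthase Lss at 46.6. The exons of Fdps overlap those of Gm43738 on the same strand, which averaged 0.67 normalized counts against 55.7 for Fdps. On the opposite strand, exons of Fdft1 overlap Ctsb (22102 against 686 for Fdft1), those of Cyp51 overlap Akap9 (3166 against 1541 for Cyp51), those of Srebf1 overlap Rai1 (1927 against 3716), and those of Acss2 overlap Ggt7 and Gss (232 and 293 against 420). Exons of Hmgcs1, Idi1, Lss, Scap, Me1 and Elovl6 also overlap genes on the opposite strand for which no value was available. On the same strand, exons of Srebf1 and Scd2 overlap microRNA genes, again without a value. The use of strand in counting was not given in the sources used here. The levels of genes with overlapping exons are therefore uncertain, as is the division of shared reads between the close paralogs Scd1 and Scd2.

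**Figure D1:**
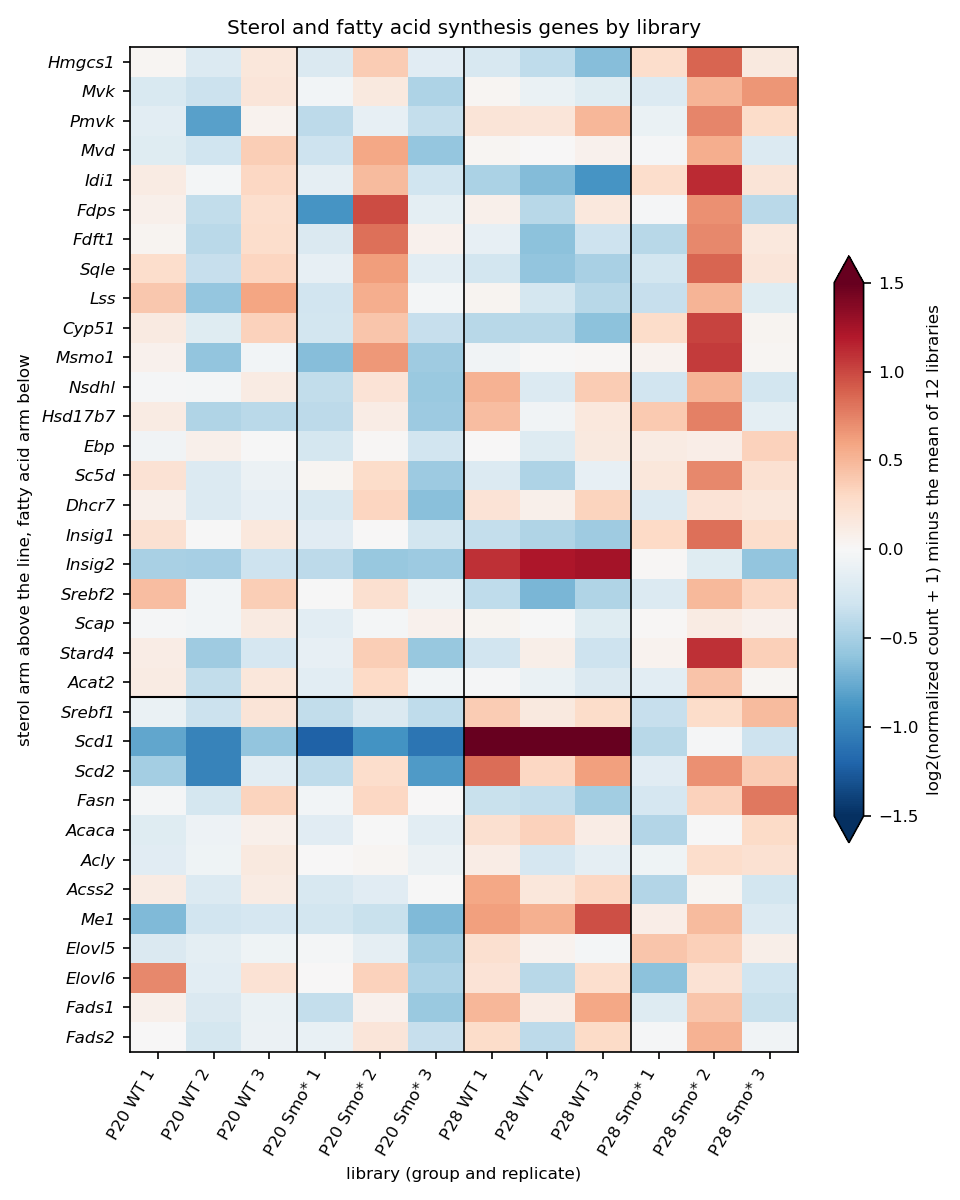
Each row is 1 of the 34 genes and each column 1 of the 12 libraries. Colour gives log2(normalized count + 1) minus that gene's mean over the 12 libraries, and shades stop at 1.5 in either direction. Scd1 and Insig2 stand high in the 3 P28 WT libraries, and most sterol genes stand high in P20 Smo* replicate 2 and P28 Smo* replicate 2.

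The first comparison asked how Smo* differed from WT in the growth phase at P28. Of the 34 genes, 6 passed limma's test at an adjusted p of 0.05, where 8.9% of all 14757 genes tested did. In the sterol arm, Hmgcs1, Idi1, Cyp51 and Insig1 were higher in Smo* (4 of 22, against 4.05% of all genes) and Insig2 was lower (1 of 22, against 4.85%). In the fatty acid arm, Scd1 was lower (1 of 12), and none was higher. In this comparison, as in the others below, less RNA per cell and fewer cells of a type cannot be told apart, because the cells were sequenced in bulk.

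Hmgcs1, which makes the precursor of mevalonate, gave 3031, 2748 and 2299 normalized counts in P28 WT and 4314, 6564 and 3971 in P28 Smo*. The groups do not overlap, and Smo* replicate 2 stands above the other mutant libraries. The difference was 1.80-fold (log2 0.85, 95% interval 0.39 to 1.32, n = 3 per group, limma adjusted p = 0.0384). Idi1, which interconverts the isoprenoid building blocks, gave 687, 607 and 518 in P28 WT and 1147, 2076 and 1095 in P28 Smo*, again without overlap and again with replicate 2 highest. It was 2.29-fold higher (log2 1.20 ± 0.25, SE, limma adjusted p = 0.0245). Cyp51, the lanosterol demethylase, gave 1096, 1099 and 958 in P28 WT and 1775, 2967 and 1510 in P28 Smo*. It was 1.90-fold higher (log2 0.93 ± 0.23, SE, limma adjusted p = 0.0472), and the same library was highest.

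The Insig genes, whose proteins do a similar job, moved apart. Insig1 gave 2484, 2330 and 2202 normalized counts in P28 WT and 3894, 5612 and 3818 in P28 Smo*, a 1.87-fold higher level (log2 0.90 ± 0.16, SE, limma adjusted p = 0.0146). Insig2 gave 2005, 2178 and 2227 in P28 WT and 953, 831 and 625 in P28 Smo*. It was 2.70-fold lower (log2 -1.43, 95% interval -1.81 to -1.05, limma adjusted p = 0.00209), and every mutant library lay below every WT library. Per kilobase of exon, the level of Insig2 divided by that of Insig1 was 0.817 ± 0.0918 (SD, n = 3) in P28 WT and 0.165 ± 0.0463 in P28 Smo*. At P20 this ratio was 0.179 ± 0.0164 in WT and 0.207 ± 0.0258 in Smo*, so the P28 WT libraries are the ones that stand apart.

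Sequences at the starts of these genes are shown because members that moved in the same comparison can be read side by side. They come from RefSeq's promoter windows on GRCm38.p6, 250 bases before to 50 after each annotated start, and capitals mark CCAAT on either strand (CCAAT or ATTGG) and TCACNCCAC. Of 3 genes the window is cut to the bases before the start that lie outside the gene. Hmgcs1 is shown from chr13:119690101-119690350 (plus strand), Insig1 from chr5:28071162-28071362 (plus strand), and Insig2 from the most upstream of its 3 windows, chr1:121332590-121332839 (minus strand). The other windows of Insig2 held no CCAAT on either strand.
Hmgcs1: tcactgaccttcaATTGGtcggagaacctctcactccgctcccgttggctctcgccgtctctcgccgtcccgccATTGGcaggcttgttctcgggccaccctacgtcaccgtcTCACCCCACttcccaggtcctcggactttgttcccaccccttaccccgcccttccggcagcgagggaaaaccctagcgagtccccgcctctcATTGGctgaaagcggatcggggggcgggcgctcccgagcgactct
Insig1: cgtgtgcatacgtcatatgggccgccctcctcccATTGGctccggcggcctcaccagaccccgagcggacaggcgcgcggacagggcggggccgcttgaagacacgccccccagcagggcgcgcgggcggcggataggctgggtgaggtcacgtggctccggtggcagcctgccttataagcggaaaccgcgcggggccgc
Insig2: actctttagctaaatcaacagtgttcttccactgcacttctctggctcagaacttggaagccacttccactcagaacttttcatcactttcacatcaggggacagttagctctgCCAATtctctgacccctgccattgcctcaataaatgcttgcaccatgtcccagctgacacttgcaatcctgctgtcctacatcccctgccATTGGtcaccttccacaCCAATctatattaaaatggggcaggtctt
For Idi1 and Cyp51 no CCAAT lay outside the longer gene model of the GENCODE annotation, so 29 bases around a match inside the gene but before the RefSeq start are given, at chr13:8885549-8885577 (plus strand, 45 bases before the start) and chr5:4104710-4104738 (minus strand, 29 bases before the start). Idi1 holds another match 14 bases before the start.
Idi1: tgcctccagctgATTGGcgagcccgggca
Cyp51: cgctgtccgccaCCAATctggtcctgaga

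A window was found for 27 of the 34 genes, and Fdps, Fdft1, Sqle, Stard4, Scd1, Scd2 and Fads1 had none. CCAAT, the core of the NF-Y motif, occurred on either strand in 22 of the 27 genes, 16 of 18 in the sterol arm and 6 of 9 in the fatty acid arm. Over all genes with a window it occurred in 41.1%, and in 37.4% of the 32851 windows. Mvk held 5 copies in 1 window and Hmgcs1 and Nsdhl 4 each. TCACNCCAC, a form of the sterol response element, occurred in 1 of the 27 genes, Hmgcs1, 137 bases before its start, and in 1.44% of all genes with a window. CACGTG, an E-box, occurred in 6 of the 27 genes, Insig1 among them, and in 8.09% of all genes with a window. These are matches of letters within fixed windows and show no binding.

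The other 17 sterol genes did not pass the test at P28, with log2 differences from -0.25 in Nsdhl, which removes sterol methyl groups, to 0.71 in squalene epoxidase Sqle. Counting all 22, the log2 difference was above 0 in 19, where 49.1% of all genes were, and had a median of 0.30, where the median of all genes tested was -0.01. Every mutant library was above every WT library in 8 of the 22 and below in 1, against 15.6% and 17.8% of all genes. Among those 8 but not past the test were Sqle, Sc5d, Msmo1 and Srebf2. Srebf2 itself gave 4053, 3278 and 3857 in P28 WT and 4568, 7394 and 6540 in P28 Smo* (log2 0.70 ± 0.19, SE, limma adjusted p = 0.0567). Sqle gave 1033, 830 and 897 against 1034, 2301 and 1425, so its groups nearly touch (log2 0.71 ± 0.27, SE, limma adjusted p = 0.136). Scap gave 2370, 2289 and 2034 against 2324, 2501 and 2407 and ranged from 2034 to 2523 over all 12 libraries. Stard4 gave 609, 790 and 600 against 770, 1597 and 955, with overlap and a limma adjusted p of 0.15.

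Much of the sterol arm's height in P28 Smo* rested on replicate 2. Without that library the median of the 22 log2 differences was 0.16 in place of 0.30, while it was 0.46 without Smo* replicate 1. Without replicate 2 the log2 difference was 0.63 for Hmgcs1 (limma adjusted p = 0.0533), 0.64 for Cyp51 (0.044), 0.90 for Idi1 (0.0225) and 0.72 for Insig1 (0.0175). Leaving out a WT library ended several calls. Without WT replicate 1, 2 or 3 in turn, the limma adjusted p was 0.104, 0.132 and 0.161 for Cyp51, 0.0669, 0.119 and 0.146 for Hmgcs1, and 0.0527, 0.0924 and 0.1 for Idi1. For Insig1 the values were 0.0646 without WT replicate 2 and 0.0681 if WT replicate 3 was left out. Leaving out Smo* replicate 1 gave 0.078 for Cyp51 and 0.0642 for Hmgcs1. The tool edgeR called 6 of the 34 (9.05% of all genes) and DESeq2 10 (15.6%). The authors' deposited table calls 12 of the 34 genes at P28, where it calls 16.8% of its genes, and adds Sqle, Sc5d, Srebf2 and Fasn as higher and Acss2 and Me1 as lower in Smo*.

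Scd1 had the largest difference of the 34 genes at P28. The gene lies at chr19:44394455-44407879 (minus strand, GRCm38). It gave 21827, 24783 and 31285 normalized counts in P28 WT and 4480, 5908 and 4797 in P28 Smo*. It was 5.11-fold lower in Smo* (log2 -2.35, 95% interval -2.75 to -1.95, limma adjusted p = 0.000289), and the groups are far apart. Scd2, its neighbour at chr19:44293674-44306864 (plus strand), gave 26164, 18164 and 22499 in P28 WT and 13092, 23561 and 19141 in P28 Smo*, with overlapping groups (log2 -0.29 ± 0.24, SE, limma adjusted p = 0.478). Per kilobase of exon, Scd1 was at 1.34 ± 0.351 (SD, n = 3) times the level of Scd2 in P28 WT and 0.314 ± 0.059 times in P28 Smo*. The ratio was 0.390 ± 0.0608 in P20 WT and 0.280 ± 0.0923 in P20 Smo*, so Scd1 was the more abundant desaturase in P28 WT only among the 4 group means. Within P28 WT the ratio was 0.932, 1.52 and 1.55, so in replicate 1 Scd2 was the more abundant.

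The other 11 fatty acid genes did not pass the test at P28, and their log2 differences ran from -0.58 to 0.70. Fasn gave 7826, 7667 and 6827 in P28 WT and 8284, 12460 and 17034 in P28 Smo*, and its highest value was in replicate 3, the library with the adipocyte transcripts. Its log2 difference was 0.70 (limma adjusted p = 0.114) and 0.45 without that library (0.167). Without Smo* replicate 1 it was 0.97 and passed the test (0.0254). Acss2, which activates acetate, gave 618, 463 and 512 against 304, 419 and 341, and the NADPH source Me1 gave 1006, 950 and 1281 against 701, 914 and 571. Both had every mutant library below every WT library, with limma adjusted p of 0.0934 and 0.115. Srebf1 gave 4742, 4007 and 4381 against 2853, 4382 and 5037, which overlap widely. The arm's median log2 difference was -0.27, with 4 of 12 genes above 0, and it was -0.05 without Smo* replicate 1 and -0.16 without WT replicate 1.

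**Figure D2:**
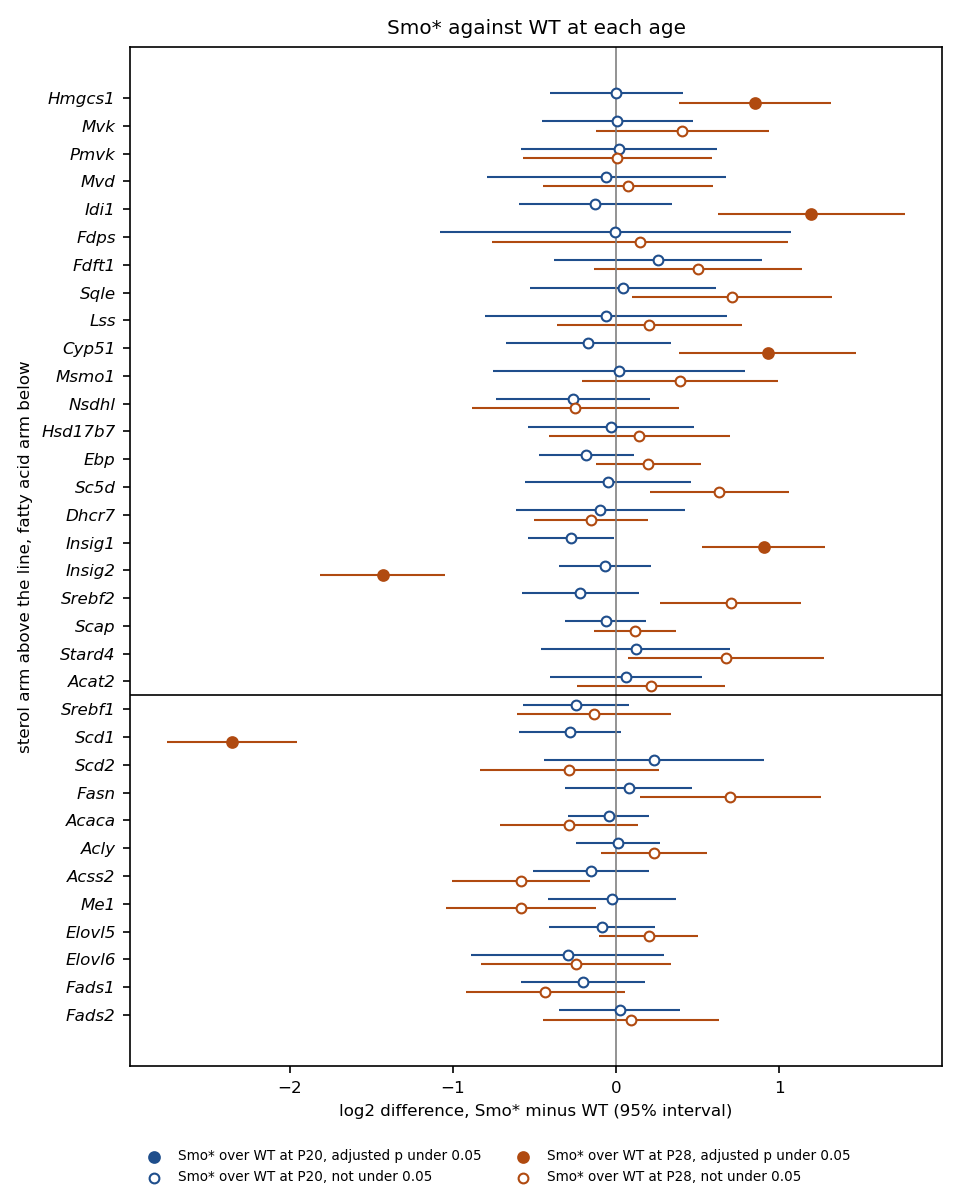
Points give the log2 difference of Smo* minus WT for each gene at P20 (blue) and P28 (orange), and lines are 95% intervals from limma. Filled points passed an adjusted p of 0.05. At P28 Insig2 and Scd1 lie far to the left at -1.43 and -2.35, and at P20 no point is filled.

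Markers of other cells moved with the P28 comparison, and their part in it was not tested. Of 17 adipocyte markers, 16 were tested, and 13 of them had a log2 difference above 0 (49.1% of all genes). In 5 every Smo* library was above every WT library and in 2 below, against 15.6% and 17.8% of all genes. Those that passed the test were Cd36, higher, and Adrb3 and Cebpa, lower (4.05% and 4.85% of all genes). The summed counts of the list were 37495 to 47049 in P28 WT and 19987 to 41781 in P28 Smo*. In P28 WT, where Scd1 was highest, Cidec, Lep and Cfd were at 0 in all 3 libraries, Adipoq was at 0, 0 and 4, and Lpl (13357 to 27375) and Cebpa (17922 to 22114) made up most of the sum. Of 12 sebocyte markers, 6 were tested and none passed, Awat1 was at 0 in P28 WT, and the sums were 7335 to 7986 in P28 WT and 3112 to 7306 in P28 Smo*. Most of these sums came from Mc5r (3360 to 3933 in P28 WT), Prdm1 (2037 to 2551) and Plin2 (1659 to 1922), while Awat2 was at 5 to 27 there. In P28 Smo* Mc5r gave 1239, 2934 and 103. Of 21 dermal papilla markers 1 was higher and 8 were lower in Smo*, of 8 endothelial markers 3 were higher, and of 11 cell cycle genes 2 were higher (Mcm2 and Pcna), against 4.05% higher and 4.85% lower of all genes.

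The same comparison in telogen, at P20, gave no call among the 34 genes, where limma called 0.696% of the 14645 genes tested. At an unadjusted p under 0.05 there was 1 of the 34, Insig1, against 11.4% of all genes. The tools edgeR and DESeq2 and the authors' deposited table also called 0 of the 34, where they called 0.635%, 3.34% and 2.13% of all genes, and in no gene did the groups separate, against 16.4% of all genes. Insig1 gave 3721, 3174 and 3545 in P20 WT and 2828, 3182 and 2617 in P20 Smo* (log2 -0.28 ± 0.12, SE, limma adjusted p = 0.418). Scd1 gave 3487, 2989 and 3961 against 2573, 3200 and 2786 (log2 -0.28, limma adjusted p = 0.495), and Insig2 668, 665 and 755 against 713, 634 and 644 (log2 -0.07, 0.89). Over the 34 genes the log2 difference ran from -0.30 in the elongase Elovl6 to 0.26 in squalene synthase Fdft1. Fdft1 gave 677, 494 and 789 in P20 WT and 564, 1164 and 686 in P20 Smo*, so its height rested on Smo* replicate 2, and Elovl6 gave 1540, 839 and 1089 against 943, 1186 and 677. Nsdhl gave 389, 384 and 427 against 305, 453 and 267 (log2 -0.26, limma adjusted p = 0.697). Among the regulators, Srebf1 gave 3385, 2907 and 4166 in P20 WT and 2811, 3119 and 2800 in P20 Smo* (log2 -0.25, limma adjusted p = 0.577). Srebf2 gave 5227, 6219 and 4898 in P20 Smo*, within the spread of its P20 WT values of 5101 to 7238 but for the lowest library. Scap gave 2276, 2231 and 2523 against 2071, 2259 and 2403, so both of these regulators overlap between genotypes as well.

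Medians at P20 were -0.06 in the sterol arm and -0.07 in the fatty acid arm, beside 0.00253 over all genes. When 1 library was left out, the sterol median ran from -0.25 (without Smo* replicate 2) to 0.07 (without Smo* replicate 3) and the fatty acid median from -0.13 to 0.012 (without the same libraries). Scaling to library sums without mitochondrial and the 10 most abundant genes moved the median of all genes to 0.12 and gave 0.06 and 0.05 for the arms, so both changed sign but stayed below the median of all genes. The 95% intervals at P20 leave room for differences of some size. For Insig2 the interval was -0.35 to 0.21 and for Scd1 -0.59 to 0.03, whereas for Fdps it spanned -1.08 to 1.07.

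The difference between the ages was tested itself, as the interaction of genotype and age in a fit over all 12 libraries. It passed for 3 of the 34 genes, against 4.72% of the 14790 genes tested, with 1 positive (1.89% of all genes) and 2 negative (2.83%). For Insig1 the genotype difference was higher at P28 by 1.18 on the log2 scale (95% interval 0.74 to 1.62, limma adjusted p = 0.00809). It was lower at P28 for Insig2, by -1.36 (-1.81 to -0.92, limma adjusted p = 0.00386), and for Scd1, by -2.07 (-2.56 to -1.58, limma adjusted p = 0.000471). These 3 calls held in each of the 25 other settings tried. One of these, scaling without mitochondrial and the most abundant genes, moved the median interaction of all genes from -0.02 to -0.13. The other 31 did not pass. Idi1 (1.32, limma adjusted p = 0.0528), Srebf2 (0.92, 0.0644), Cyp51 (1.10, 0.0963) and Hmgcs1 (0.85, 0.115) had the next smallest adjusted p.

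**Figure D3:**
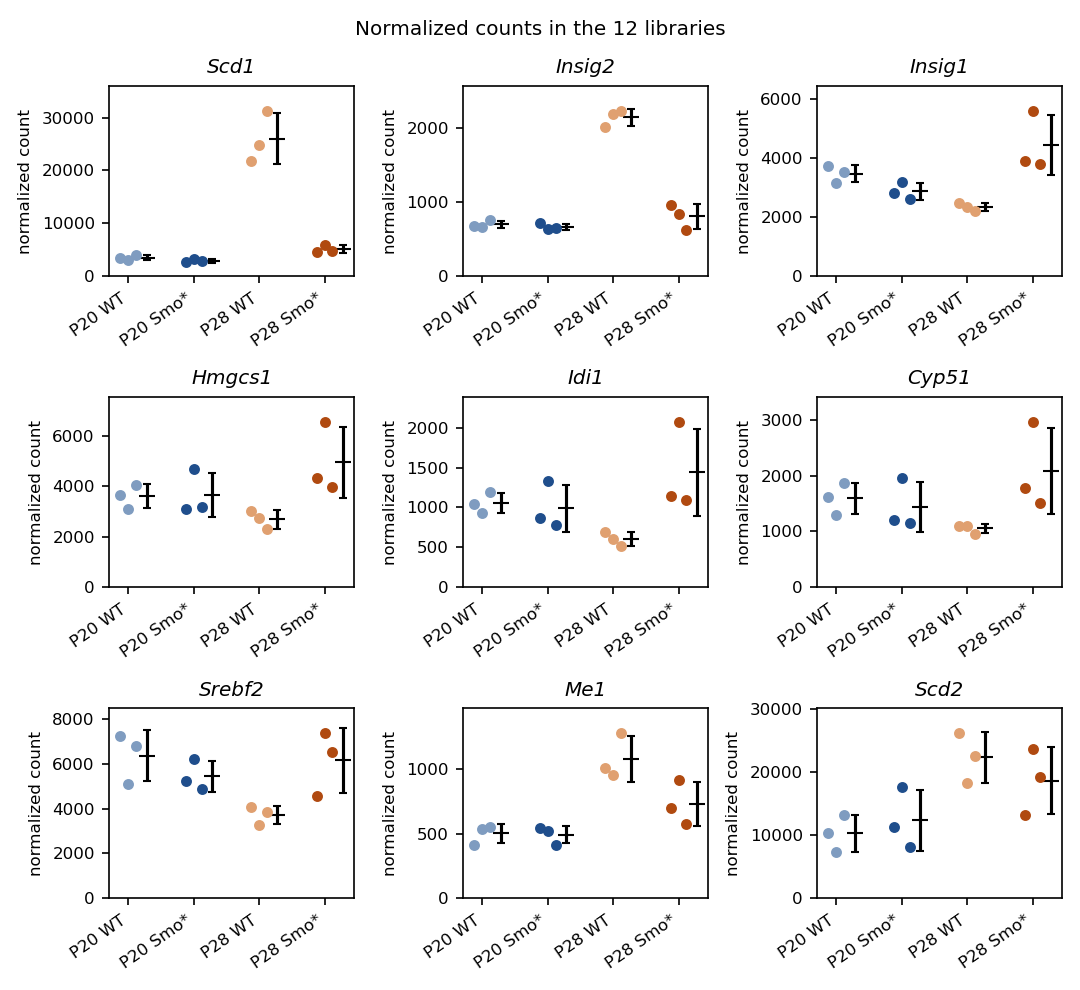
Each panel shows 1 gene, with points for the normalized counts of the 3 libraries of each group and a bar for the mean ± SD, on an axis that starts at 0. Scd1 and Insig2 are high in the P28 WT libraries alone, Insig1, Hmgcs1, Idi1 and Cyp51 are lowest there, and Me1 and Scd2 are higher at P28 in WT.

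Between telogen and full anagen, the P28 over P20 comparison within WT, 7 of the 34 genes changed, where 25.4% of the 14790 genes did. Genes higher at P28 were Insig2 in the sterol arm and Scd1, Scd2 and Me1 in the fatty acid arm (4 of 34, against 13.5%). Lower at P28 were the sterol genes Srebf2, Insig1 and Idi1 (3 of 34, against 11.9%). From the WT values above, Scd1 rose 7.43-fold (log2 2.89 ± 0.16, SE, limma adjusted p = 4.46e-07) and Insig2 rose 3.07-fold (log2 1.62 ± 0.14, SE, limma adjusted p = 1.64e-05). Me1 gave 414, 538 and 551 at P20 and rose 2.15-fold (log2 1.10 ± 0.19, SE, limma adjusted p = 0.00164). Scd2 gave 10307, 7328 and 13179 at P20 and rose 2.21-fold (log2 1.14 ± 0.30, SE, limma adjusted p = 0.0145), a call that ended without P20 WT replicate 2 (0.0657) or P28 WT replicate 1 (0.0524).

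Srebf2 gave 7238, 5101 and 6784 normalized counts in P20 WT, all above its P28 WT values, and fell by 0.76 on the log2 scale (limma adjusted p = 0.01). Insig1 fell by 0.57 (limma adjusted p = 0.0127, and 0.0536 without P28 WT replicate 3). Idi1 gave 1042, 936 and 1191 at P20 and fell by 0.81 (limma adjusted p = 0.0321). Its adjusted p was 0.0705, 0.0516 and 0.106 without P20 WT replicate 1, 2 or 3, and 0.0717 and 0.118 without P28 WT replicate 2 or 3. Per kilobase of exon, Srebf1 was at 0.702 ± 0.0958 (SD, n = 3) times the level of Srebf2 in P20 WT, 0.685 ± 0.0447 in P20 Smo*, 1.50 ± 0.0556 in P28 WT and 0.845 ± 0.12 in P28 Smo*.

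Within WT the arms differed in balance. In the fatty acid arm 9 of 12 genes were above 0 (49.5% of all genes), with a median log2 difference of 0.32, and in 7 every P28 library exceeded every P20 library, against 23.6% of all genes. In the sterol arm 9 of 22 were above 0, the median was -0.06 (from -0.16 to -0.0048 when 1 library was left out), and 5 genes separated downward and 3 upward, against 21.6% and 23.6%. Among genes that did not pass, the isoprenoid kinase Pmvk gave 144, 91 and 167 at P20 and 183, 182 and 227 at P28 (log2 0.60, limma adjusted p = 0.118). Hsd17b7, a sterol reductase, gave 640, 429 and 443 and then 808, 567 and 654 (log2 0.43, 0.233). Fasn gave 9628, 8187 and 12415 at P20, all above P28 (log2 -0.42, limma adjusted p = 0.201), and Cyp51 1612, 1292 and 1864 (log2 -0.58, 0.108). Acly, which makes cytosolic acetyl-CoA, gave 3283, 3540 and 4091 and then 4004, 3101 and 3375 (log2 -0.06, limma adjusted p = 0.769), and Elovl6 gave 1077, 702 and 1111 at P28 (log2 -0.25, 0.572). Both overlap between the ages.

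Beside these changes, 14 of 21 dermal papilla markers were higher and 1 lower at P28 in WT (13.5% and 11.9% of all genes), with Corin, a protease gene of the papilla, at 457, 766 and 416 against 69922, 69681 and 79819. Of 16 adipocyte markers tested, 12 had a log2 difference below 0, and 4 separated downward and 3 upward (21.6% and 23.6% of all genes). Those that passed were Pparg, Cebpa and Lpl, higher, and Cd36, lower, and the sum of the list was 15416 to 21685 in P20 WT. Of 11 cell cycle genes, 3 were lower, against 11.9%. Of 8 dermal sheath and smooth muscle markers, 4 were higher and 0 lower (13.5% and 11.9% of all genes). Of 10 dermal fibroblast markers 3 were lower, as were 3 of 5 pericyte markers (11.9% of all genes), and 0 of either list were higher. The part of these markers in the changes of the 34 genes was not tested.

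Within Smo*, P28 over P20, 2 of the 34 genes changed, both higher at P28, against 3.46% of all genes in either direction and 1.98% upward. Scd1 rose 1.77-fold (log2 0.82 ± 0.16, SE, limma adjusted p = 0.0229) and Insig1 rose 1.52-fold (log2 0.61 ± 0.14, SE, limma adjusted p = 0.043), both with every P28 library above every P20 library. Each call ended without several libraries. Without P20 Smo* replicate 1 or 3 or P28 Smo* replicate 1 or 2, the adjusted p was 0.0704, 0.0795, 0.0568 and 0.0605 for Scd1 and 0.104, 0.139, 0.0749 and 0.0854 for Insig1, which also stood at 0.0508 without P20 Smo* replicate 2. Without P28 Smo* replicate 3, Me1 passed as well (log2 0.71, limma adjusted p = 0.0499). The elongase Elovl5 came close, with 2463, 2281 and 1743 at P20 and 3351, 3211 and 2663 at P28 (log2 0.52, limma adjusted p = 0.0591).

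Within Smo* 20 of 22 sterol genes and 10 of 12 fatty acid genes were above 0, against 49.9% of all genes, with medians of 0.31 and 0.24 beside -0.00121 over all genes. The scaling without mitochondrial and the most abundant genes moved the median of all genes to -0.10 here and gave 0.21 and 0.14. When 1 library was left out, the sterol median ran from 0.21 (without P28 Smo* replicate 2) to 0.56 (without P20 Smo* replicate 2). The fatty acid median was 0.14 without P28 Smo* replicate 2 or P20 Smo* replicate 3, 0.40 without P20 Smo* replicate 2 and 0.39 without P28 Smo* replicate 1. Stard4 gave 686, 960 and 502 at P20 (log2 0.61, limma adjusted p = 0.225), Hsd17b7 gave 448, 632 and 402 at P20 and 768, 990 and 531 at P28 (log2 0.61, 0.175), and Lss gave 397, 703 and 475 and then 380, 690 and 425 (log2 -0.08, 0.903). In all 3 the ages overlap. Fdft1 gave 491, 1077 and 735 at P28 (log2 -0.07, limma adjusted p = 0.916) and Elovl6 610, 1087 and 757 (log2 -0.20, 0.719). At P20, Acss2 gave 349, 366 and 409 (log2 -0.09, 0.797), Me1 541, 522 and 413 (log2 0.55, 0.123) and Scd2 11261, 17576 and 8132 (log2 0.63, 0.233), and of these Me1 alone had every P28 library above every P20 library. Other markers moved in this comparison as well. Of 8 endothelial markers 7 were above 0, against 49.9% of all genes, and Tek passed the test (log2 1.16, limma adjusted p = 0.0335; 1 of 8, against 1.98% of all genes), and their sums were 2669 to 2952 at P20 and 3500 to 6032 at P28. Of 8 dermal sheath and smooth muscle markers, Actg2 and Tagln were higher and Myocd lower. Of all genes, 1.98% were higher and 3.46% differed in either direction. The sums of this list were 7235 to 13146 at P20 and 14181 to 18905 at P28. The part of these markers in the values of the 34 genes was not tested. The WT and Smo* comparisons use different libraries, and the tested difference between them is the interaction given above.

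**Figure D4:**
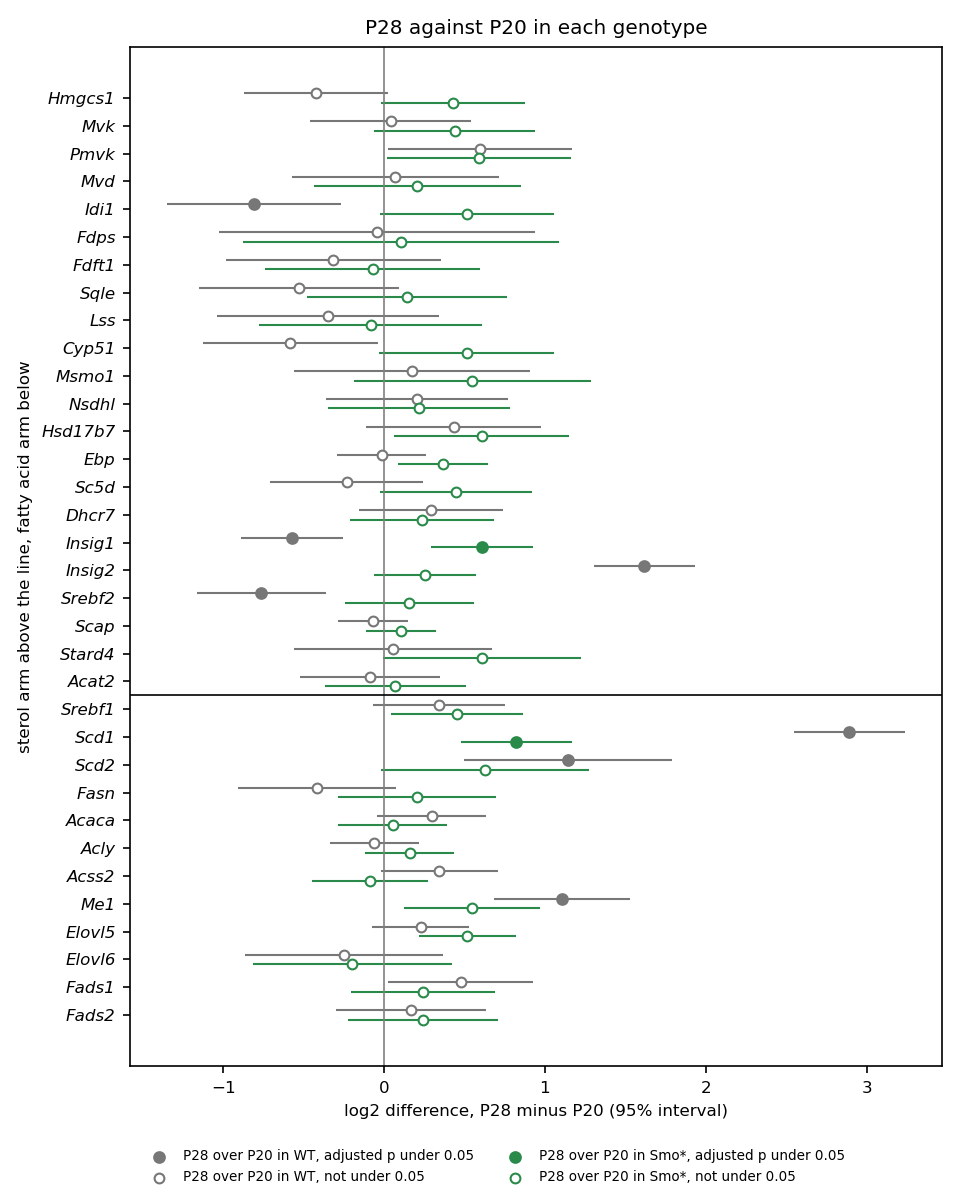
Points give the log2 difference of P28 minus P20 for each gene in WT (grey) and Smo* (green), with 95% intervals from limma over 12 libraries, and filled points passed an adjusted p of 0.05. In WT Scd1 and Insig2 reach 2.89 and 1.62, while in Smo* they stand at 0.82 and 0.25.

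Sterol enzymes rose and fell together between libraries of the same group. After each group's mean was subtracted, the 17 sterol enzymes deviated by a mean log2 of 0.47 in P20 Smo* replicate 2, with 17 of 17 above their group mean, and by 0.43 in P28 Smo* replicate 2, with 16 of 17 above. In P20 Smo* replicate 3 the mean was -0.26 with 0 of 17 above, in P28 Smo* replicate 1 it was -0.27 with 1 of 17 above, and in P20 WT replicate 2 it was -0.28 with 1 of 17 above. Between 48.1% and 54.4% of all genes were above their group mean in any library. The 3 P28 WT libraries lay closest together, from -0.12 to 0.11. Fatty acid enzymes followed with smaller deviations, 0.21 and 0.25 in the 2 high libraries. Adipoq was at 0 in P20 Smo* replicate 2 against 155 and 270 in the others of its group, and at 2 in P28 Smo* replicate 2. That library also had the highest sum of dermal papilla markers among P28 Smo*. Summed counts of the 11 cell cycle genes were highest in the same library (9564), and lowest in P28 Smo* replicate 1 (4291) and P20 Smo* replicate 3 (4111) within their groups. In P20 Smo*, however, replicate 1 had the highest such sum (8419). P20 WT replicate 2, low in sterol enzymes, had the highest of its group (5800). The part of these markers in the deviations was not tested.

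**Figure D5:**
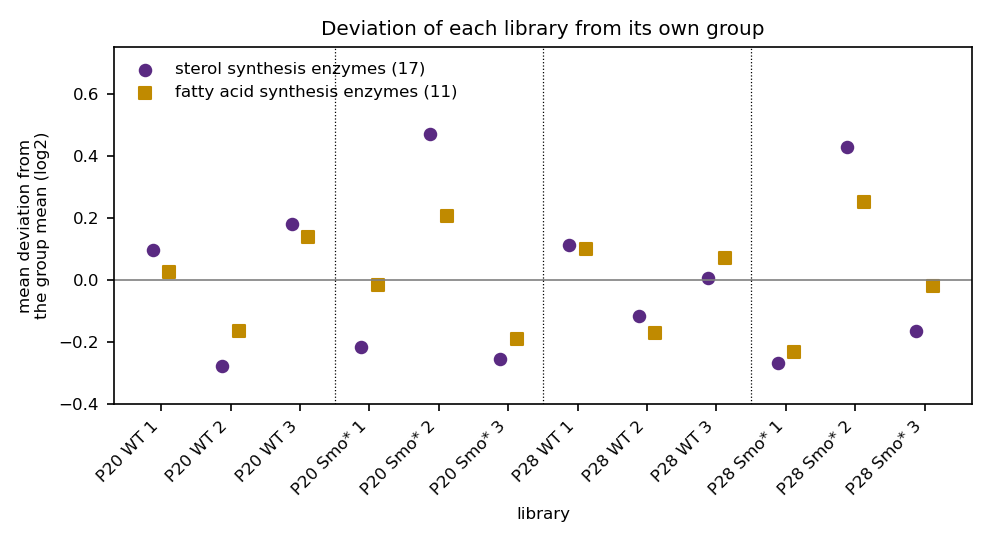
For each library the mean deviation of 17 sterol enzymes (circles) and 11 fatty acid enzymes (squares) from the mean of the library's own group is plotted on the log2 scale. Replicate 2 of both Smo* groups stands highest, at 0.47 and 0.43 for the sterol enzymes.

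As a description over the 12 libraries, the mean Pearson correlation of these deviations was 0.664 over the 136 pairs of sterol enzymes, 132 of them above 0, and 0.393 over the 55 pairs of fatty acid enzymes. Between enzymes of different arms it was 0.505, and over all pairs of genes 0.00355. Libraries of 1 group share a mean, and the pairs share each library's depth and scaling. Without replicate 2 of both Smo* groups the values were 0.356 and 0.253. Each sterol enzyme was also set against the mean deviation of the other sterol enzymes. Sqle, Msmo1 and Fdft1 followed that mean most closely, at 0.964, 0.949 and 0.931, and Ebp least at 0.23. Genes that are not sterol enzymes were set against the mean of all of these enzymes. Among them Scd2 stood at 0.899, Fads1 at 0.874, Insig1 at 0.87, Srebf2 at 0.819 and Stard4 at 0.81. Insig2 stood at -0.0169, Scap at 0.343 and Srebf1 at 0.54.

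Other genes of the same pathways were read from 4 further lists. None of 18 other sterol synthesis and SREBP activation genes tested passed at P28 between genotypes, where 6 had an unadjusted p under 0.05, against 26.4% of all genes. In WT, P28 over P20, Tm7sf2, a sterol reductase, rose by a log2 of 2.0, the SREBP proteases Mbtps2 and Mbtps1 rose by 0.65 and 0.29, and the electron donor Por fell by 0.60 (3 of 18 higher and 1 lower, against 13.5% and 11.9% of all genes). In Smo* over that interval Cyb5r3 rose by 0.39 (1 of 18, against 1.98%).

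Of 23 genes of sterol uptake, transport, efflux and storage, 3 were lower and none higher in P28 Smo*, against 4.85% and 4.05% of all genes. They were the sterol exporter Abcg1 (log2 -1.77), the lipoprotein gene Apoe (-2.14) and cholesterol hydroxylase Ch25h (-2.67), with limma adjusted p of 0.000578, 0.000609 and 0.0232. In WT at P28 over P20, 5 of the 23 were higher (13.5% of all genes) and none lower, including Abcg1 (2.12), Apoe (1.57), the lysosomal lipase Lipa (1.21) and the esterifying enzyme Soat1 (0.88). The interaction passed for Abcg1 (-1.54) and Apoe (-1.47), 2 of 23 against 2.83% of all genes.

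Of 32 other genes of fatty acid synthesis and triglyceride assembly, 29 were tested at P28, 6 were lower in Smo* (4.85% of all genes) and none was higher. The lipid droplet gene Pnpla3 was lower by a log2 of -3.47 and was also lower at P20 (-1.86, limma adjusted p = 0.0458). The fatty acid elongation dehydratases Hacd3 and Hacd1 stood at -1.36 and -0.79, and the phosphatidate phosphatase Lpin2 at -0.70. In WT 8 of 30 rose and 1 fell at P28 (13.5% and 11.9% of all genes), among them Pnpla3 (2.75), Hacd3 (1.28), Mid1ip1 (1.04) and Agpat2 (1.01). The interaction passed for Hacd3 (-1.44), Lpin2 (-0.72) and Mid1ip1 (-0.67), 3 of 30 against 2.83% of all genes. Of 17 fatty acid oxidation genes tested, none passed between genotypes at either age, with 0 and 4 at an unadjusted p under 0.05 at P20 and P28, where 11.4% and 26.4% of all genes were. Hadh (0.82) and Acads (0.74) rose in WT, 2 of 17 against 13.5% of all genes.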

How the data were processed

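The deposited tables, 1 per age, give for 25887 genes a normalized count (unit: signal) in 6 libraries. The authors divided counts by 1 size factor per library, as read from the values, 100% of which are whole reads, within 0.01 reads, once a library's step is divided out. The authors' mean column equals the mean over 12 libraries (20400 of 20400 genes above 0), so the tables were normalized together. The authors' deposited log2 fold change and its standard error (log2) are WT over Smo*, and their test statistic (a score), p-value and adjusted p-value stand beside it. Builds GRCm38.p4 and mm10 are listed per the submitters' processing notes, without roles, as are the tools DESeq2, HTSeq, TopHat2 (version 2) and Trimmomatic. Per the labels' protocols, 100 ng of RNA was depleted of ribosomal RNA before strand-marking libraries were made.

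Symbols came from a GENCODE annotation of GRCm38 (98.7% of identifiers). Tests were limma 3.58.1 (R 4.3.3, variance trend) on log2(normalized count + 1), a pseudocount of 1, over genes whose mean reached 10, adjusted by Benjamini-Hochberg over every gene tested. Genotypes were compared within an age (6 libraries), and the interaction and age contrasts used 1 fit of 4 groups (12 libraries). Fold changes are on the log2(count + 1) scale. The fit was tested on simulated data. Alternatives were edgeR 4.0.16 and DESeq2 1.42.0 on the recovered reads, other scalings, filters, pseudocounts and variance models, a threshold of 0.1, and leaving out each library. An exact permutation test of 3 against 3 cannot go below p = 0.1, so none was used. Replicates are numbered in accession order, and the labels do not tie libraries to animals. The p-values thus measure only the spread of these libraries, which may be technical.

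Members, gene lists and tests were chosen with earlier results of these data known. Genes given library by library were those called between genotypes or in the interaction, the 3 of each arm with the largest differences in each comparison, and the 5 regulators. Outside the 34, the genes named are called genes, up to 4 per list and comparison, and markers. Elovl5, Sqle, the other genes with separate groups, and the individual markers were named after their values were seen.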

Additional observations from a re-analysis of the deposited data

Results flagged for a closer look

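The genotype difference itself differed between P20 and P28 in 3 of the 34 genes, by the interaction term of limma. The interaction was 1.18 on the log2 scale for Insig1, which stood at -0.28 at P20 and 0.90 at P28. It was -1.36 for Insig2, which stood at -0.07 and -1.43. It was -2.07 for Scd1, which stood at -0.28 and -2.35. Age, sex and the gap in anagen stage change together between the 2 comparisons and cannot be told apart.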

How the results depend on the processing

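Groups of 3 libraries limit the precision, and intervals of low genes such as Fdps are wide. The count of genes called between genotypes at P28, 6, became 2 without the variance trend, 10 with DESeq2 and 12 in the authors' deposited table, and ran from 2 to 6 when 1 library was left out. The interaction count, 3, became 6 with DESeq2, 6 at a threshold of 0.1 and 7 from separate fits per age. The count within Smo*, 2, became 1 under scaling without mitochondrial and the top 10 genes, 1 without a filter, 0 without the variance trend and 0 in a separate fit per genotype, and ran from 0 to 4 when 1 library was left out. At P20 the count was 0 in every setting, and in WT it ran from 5 to 6 when 1 library was left out. For these other settings, shares of all genes called were given only between genotypes, for edgeR, DESeq2 and the authors' table.

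Insig2 and Scd1 held their calls at P28 in all 20 settings (largest adjusted p 0.0177 and 0.00584). Over single genes and settings, 733 values kept their direction and side of the threshold, 42 fell short of it, 8 passed it newly and 9 changed sign. None of the 9 was a called value, and the cause was not tested. The 733 include values that were not called and stayed so, and only a called value could fall short. Hmgcs1 between genotypes at P28, for example, fell short in 6 of 20 settings, and Insig1 within Smo* in 9 of 19. With 1 library left out, Fdft1 at P20 ran from -0.045 (without Smo* replicate 2) to 0.48. Acly in WT ran from -0.16 to 0.027 (without P20 WT replicate 3) and was 0.021 without P28 WT replicate 2. Within Smo*, Acss2 ran from -0.21 to 0.017 (without P28 Smo* replicate 1), Fdft1 from -0.35 to 0.23 (0.23 and 0.21 without P20 Smo* replicate 2 or P28 Smo* replicate 1), and Lss from -0.34 to 0.15 (0.15, 0.086 and 0.0069 without P20 Smo* replicate 2, P28 Smo* replicate 1 or P28 Smo* replicate 3). No paired analysis was made. Each sample title ends in a number that no other title shares, and the labels do not say what it marks. The numbers of P20 Smo* replicate 2 and P20 WT replicate 1 follow each other, as do those of P28 Smo* replicate 2 and P28 WT replicate 1. Whether these libraries are linked was not tested.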
